A study of Mus musculus with 25 samples.

Results

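Amy1, Bpifa2 and Lpo are grouped here as secretory products of the parotid gland. They were followed mouse by mouse through the development of a Sjögren's syndrome-like disease. The members were chosen by gene symbol in the probe annotation of the array and are 3 of the 18194 genes measured. Each has 1 probe set that belongs to it alone, so its value is 1 log2 expression value per mouse. All mice were males of C57BL/6.NOD-Aec1Aec2, a congenic strain that carries the Idd3 region of chromosome 3 (Aec1) and the Idd5 region of chromosome 1 (Aec2) of the NOD mouse on a C57BL/6 background. By their labels the groups differed in age alone, from 4 to 20 weeks in steps of 4 weeks, and the labels name no batch. There were 5 mice per age and 1 Affymetrix mouse genome array per mouse (25 arrays). The study describes 4 weeks as the stage before disease, 8 weeks as early pre-clinical, 12 weeks as the time leukocytes enter the glands, 16 weeks as early clinical autoimmunity and 20 weeks as the onset of secretory loss. No mouse was treated. By the methods, each RNA came from a lobe of submandibular, sublingual and parotid gland together, with the salivary lymph nodes removed. The C57BL/6J mice of the study were not analysed here. Mice are named below by the replicate number in their label. A value therefore holds all 3 glands at once, and in such bulk RNA fewer cells of a type and less RNA per cell cannot be told apart. As all mice carry the same congenic regions, what age alone does and what the disease does cannot be told apart either.

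Saliva is made by acinar cells, which store proteins in granules and release them on nervous stimulation, and the parotid is the serous gland whose saliva is rich in enzymes. Salivary amylase, the product of Amy1, begins the digestion of starch in the mouth. Bpifa2, long known as parotid secretory protein (Psp), belongs to a family of lipid-binding proteins with roles in defence against bacteria. Lpo encodes lactoperoxidase, a heme peroxidase that uses hydrogen peroxide to turn thiocyanate into an antibacterial product.

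The genes lie on 3 chromosomes in GRCm38.p6. Amy1 is at chr3:113555952-113577750, Bpifa2 at chr2:154008276-154016073 and Lpo at chr11:87806428-87826114. RefSeq gives Amy1 a pair of transcription starts. The upstream one is known for its strength in the parotid, and the downstream one is also used in the liver. The array gives 1 value for the gene, so transcripts from the 2 starts cannot be told apart. The 4 promoters, each from 250 bases before to 50 bases after the start, are shown as a description. Whether their letters bear on the levels of the genes was not tested. Capitals mark the TATA box letters TATAA read on either strand, which occur in 24.9% of the 32851 mouse promoters of this length. The downstream Amy1 start had 3 matches, of which the last 2 overlap as TTATAA on opposite strands. Bpifa2 had 1 match, and neither the upstream Amy1 start nor Lpo had these letters in the window.
Amy1 upstream start, chr3:113577701-113578000, minus strand: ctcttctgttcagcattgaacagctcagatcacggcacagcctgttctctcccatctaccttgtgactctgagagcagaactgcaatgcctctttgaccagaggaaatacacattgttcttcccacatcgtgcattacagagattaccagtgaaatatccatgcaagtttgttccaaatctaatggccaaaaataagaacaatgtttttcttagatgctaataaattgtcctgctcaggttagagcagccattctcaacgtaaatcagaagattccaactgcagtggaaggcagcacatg
Amy1 downstream start, chr3:113574713-113575012, minus strand: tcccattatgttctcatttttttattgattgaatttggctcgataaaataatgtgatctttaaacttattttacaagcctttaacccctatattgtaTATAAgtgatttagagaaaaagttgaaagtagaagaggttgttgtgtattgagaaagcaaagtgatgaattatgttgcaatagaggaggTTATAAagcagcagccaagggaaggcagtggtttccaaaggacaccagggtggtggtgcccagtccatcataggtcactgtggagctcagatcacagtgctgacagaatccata
Bpifa2, chr2:154008026-154008325, plus strand: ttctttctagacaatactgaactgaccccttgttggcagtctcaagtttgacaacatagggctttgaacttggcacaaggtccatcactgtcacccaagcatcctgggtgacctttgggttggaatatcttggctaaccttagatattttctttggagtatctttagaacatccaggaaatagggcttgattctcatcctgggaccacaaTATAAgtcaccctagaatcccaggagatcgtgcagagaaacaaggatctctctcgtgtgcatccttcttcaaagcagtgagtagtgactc
Lpo, chr11:87826065-87826364, minus strand: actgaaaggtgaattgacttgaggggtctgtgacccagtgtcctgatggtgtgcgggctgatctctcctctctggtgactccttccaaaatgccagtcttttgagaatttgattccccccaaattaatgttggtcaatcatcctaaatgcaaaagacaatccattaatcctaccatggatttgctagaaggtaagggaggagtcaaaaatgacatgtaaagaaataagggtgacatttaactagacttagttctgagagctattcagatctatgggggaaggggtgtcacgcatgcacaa

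The E-box letters CANNTG, which transcription factors of acinar cells such as Bhlha15 (Mist1) can bind, were found 2 times at the upstream Amy1 start and in none of the other windows, against 72.3% of all promoters with at least 1 match.

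The 3 genes behaved differently. Amy1 had high and low mice at every age and a few between. Its pooled SD within ages was 2.90 on the log2 scale, and its age means spanned only 0.92. Bpifa2 was lowest in the same 8 mice as Amy1, over a narrower range. Lpo had the smallest pooled SD within ages of the 3 and lower means at each later age. Its 20-week level was 1.07 lower than that at 4 weeks on the log2 scale (SE 0.25, 5 mice per age). This was the one difference between ages that passed in limma among the 3 genes, and none passed an exact permutation against 4 weeks after adjustment. Without the 3 arrays least like their age the difference was -0.61, and the Lpo means at 16 and 20 weeks were 13.05 and 13.06.

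**Figure D1:**
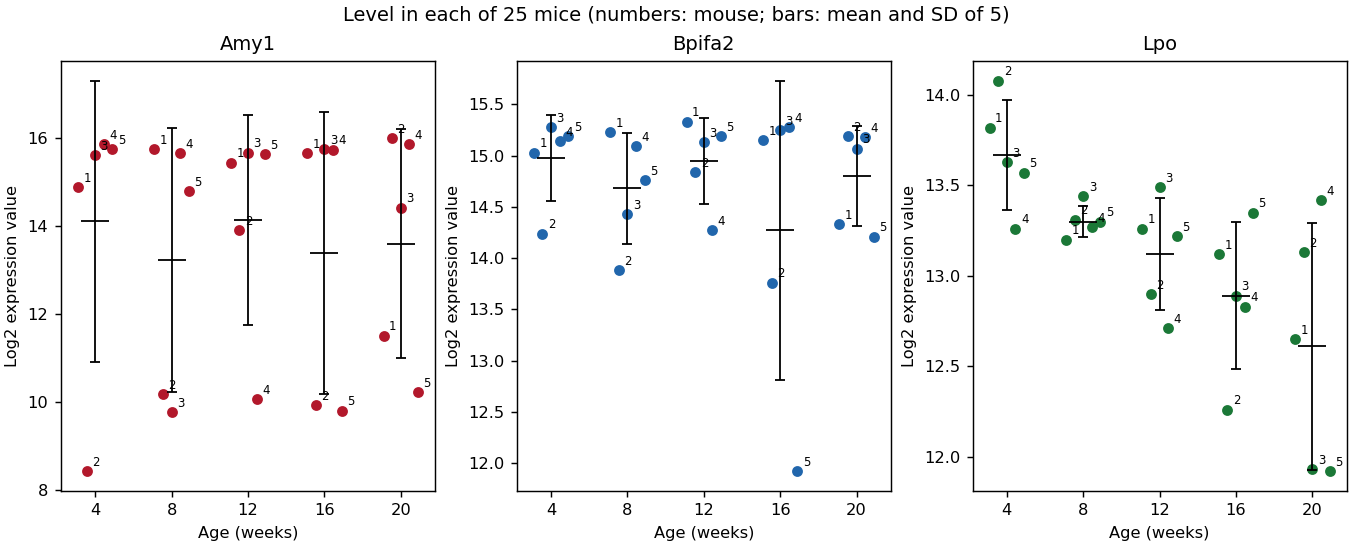
Log2 expression value (vertical axes, a separate scale for each gene) of Amy1, Bpifa2 and Lpo in each of 25 mice against age in weeks. Points are mice with their numbers, and bars are the mean and SD of 5 mice. Amy1 has high and low mice at each age, Bpifa2 has 1 mouse far below the rest at 16 weeks (11.92), and the Lpo means step down from 13.67 to 12.61.

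At 4 weeks Amy1 had log2 values of 14.89, 8.42, 15.62, 15.86 and 15.75 in mice 1 to 5. Mouse 2 was far below the other 4, and the lowest and highest mouse differed 174-fold. At 8 weeks the values were 15.75, 10.17, 9.76, 15.66 and 14.79, with mice 2 and 3 low. At 12 weeks they were 15.44, 13.90, 15.67, 10.06 and 15.64, with mouse 4 low and mouse 2 between. At 16 weeks Amy1 stood at 15.66, 9.93, 15.75, 15.74 and 9.80, with mice 2 and 5 low. At 20 weeks it stood at 11.50, 16.00, 14.42, 15.86 and 10.22, with mice 1 and 5 low. The ages overlapped almost completely, and the highest mouse of each age lay between 15.67 and 16.00.

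Ordered over all 25 mice, the widest gap between neighbouring Amy1 values was 2.40, from 11.50 to 13.90, with 8 mice below it and 17 above. The next widest was 1.34. The 8 mice were spread over the ages as 1 at 4 weeks, 2 at 8 weeks, 1 at 12 weeks, 2 at 16 weeks and 2 at 20 weeks. Even the lowest of them kept a signal of 8.42, against 3.27 for the median probe set of the array.

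Bpifa2 at 4 weeks had log2 values of 15.03, 14.24, 15.28, 15.14 and 15.19 in mice 1 to 5, with mouse 2 again the lowest. At 8 weeks they were 15.23, 13.88, 14.43, 15.09 and 14.76, and mice 2 and 3 were the lowest, as for Amy1. At 12 weeks they were 15.33, 14.84, 15.13, 14.27 and 15.19, with mouse 4 the lowest. At 16 weeks they were 15.15, 13.76, 15.25, 15.28 and 11.92, and mice 2 and 5 were low. At 20 weeks they were 14.33, 15.19, 15.07, 15.18 and 14.21, and mice 1 and 5 were low. The 8 mice of lowest Bpifa2 over the series, at or below 14.43, were the 8 mice of lowest Amy1. Within an age, the lowest and highest mouse differed by between 1.98-fold at 20 weeks and 10.3-fold at 16 weeks.

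Mouse 5 at 16 weeks, at 11.92, was 1.85 below the next mouse in Bpifa2. In the same mouse Dcpp3 and Dcpp1, demilune cell and parotid proteins named here as sublingual products, were at 8.29 and 5.28, against at least 14.48 and 9.98 in the other 4 mice of 16 weeks. The mean of the 5 measured sublingual genes, 4 of them expressed, was 4.72 in this mouse and 7.69 to 7.80 in the other 4. That level ranged from 7.77 to 8.04 at 4 weeks, 7.51 to 7.87 at 8 weeks, 7.83 to 7.95 at 12 weeks and 6.42 to 8.02 at 20 weeks. Its part in the Bpifa2 value was not tested.

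Lpo at 4 weeks had log2 values of 13.82, 14.08, 13.63, 13.26 and 13.57. At 8 weeks they were 13.20, 13.31, 13.44, 13.27 and 13.30, the tightest group of any member, with a 1.18-fold range. Mouse 2 at 4 weeks, the lowest in Amy1 of all 25, was thus the highest in Lpo of all 25. At 12 weeks Lpo stood at 13.26, 12.90, 13.49, 12.71 and 13.22. At 16 weeks it stood at 13.12, 12.26, 12.89, 12.83 and 13.35. The highest of these was mouse 5, the mouse that was lowest in Bpifa2. At 20 weeks the values were 12.65, 13.13, 11.93, 13.42 and 11.92, so mice 3 and 5 were low and mouse 4 lay within the range of the 4-week mice. Of the 5 mice per age, 1 at 8 weeks and 4 at each of 12, 16 and 20 weeks were below every 4-week mouse.

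Set against all genes with an expressed probe set (11696), Amy1 had the 6th largest pooled SD within ages, while the median gene had 0.32. Of its variance over the 25 mice, 2.04% lay between ages, the 27th lowest share of these genes, against a median of 25%. Bpifa2 had a pooled SD of 0.78, the 561st largest, with 11.9% of its variance between ages. Lpo had a pooled SD of 0.41, the 3882nd largest, with 49.8% of its variance between ages. The 113 genes with a mean above 12, as bright as these 3, had a median SD of 0.30 and a median share of 21.5%. For Amy1 the smallest range within an age, 5.61, was larger than the range of the 5 age means, 0.92. For Bpifa2 these were 0.98 and 0.70, and for Lpo 0.23 and 1.07.

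**Figure D2:**
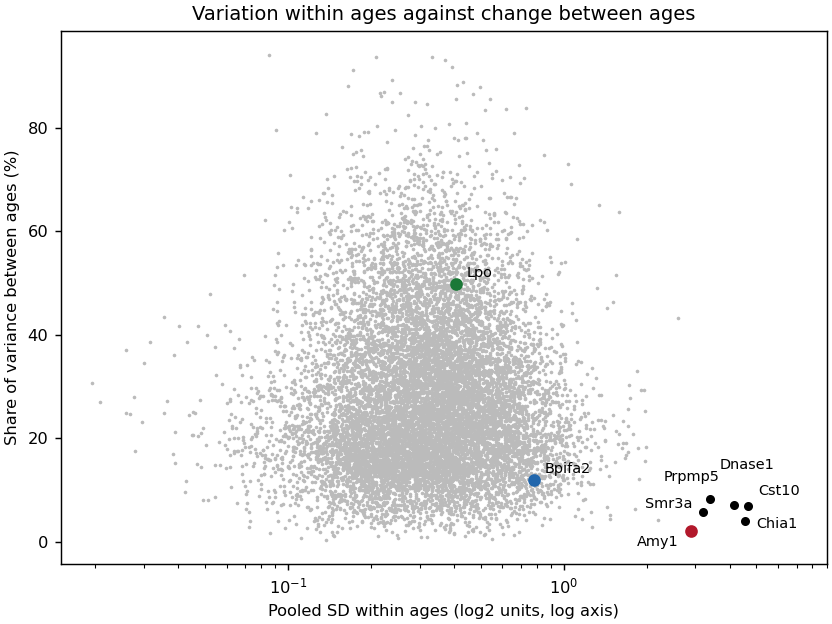
Share of variance between ages in percent (vertical axis) against the pooled SD within ages in log2 units (horizontal, log axis) for each of 11696 expressed genes (grey points). Amy1 and the 5 genes most like it lie at the far right and near the bottom, Bpifa2 lies at 11.9% and Lpo at 49.8%.

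Amy1 did not pass the test of change over the 5 ages (limma moderated F-test, adjusted p = 0.979), nor did Bpifa2 (adjusted p = 0.668). For Lpo the adjusted p was 0.0688, with an unadjusted limma p of 0.00418, and 4 of 10 alternatives brought it under the threshold. So 0 of the 3 members were called, and 4.66% of all genes were. By the B-statistic, the log odds that a polynomial term of age differs from 0, the members reached -5.20, -4.68 and 0.92, all under the threshold of 1.5 that 1.92% of all genes exceeded. The Lpo value belonged to the linear term.

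Against 4 weeks, Amy1 differed by -0.88, 0.037, -0.73 and -0.51 on the log2 scale at 8, 12, 16 and 20 weeks, each with an SE of 1.78. An SE of this size leaves changes of several-fold in either direction undetectable with 5 mice per age. Bpifa2 differed by -0.30, -0.024, -0.70 and -0.18, each with an SE of 0.48. None of these 8 differences passed (limma adjusted p from 0.603 to 0.989). Called at 8, 12 and 16 weeks were 0 of the 3 members, and of all genes 2.26%, 7.01% and 3.4% were called.

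Lpo differed from 4 weeks by -0.37, -0.56, -0.78 and -1.07 at 8, 12, 16 and 20 weeks, each with an SE of 0.25. The limma adjusted p was 0.595, 0.200, 0.0965 and 0.0211 in that order. Thus Lpo fell at 20 weeks, to a level 2.10-fold lower, and was 1 of 3 members called there against 2.65% of all genes. An exact two-sided permutation over the 252 divisions of the 10 mice gave p = 0.0159 at each of 12, 16 and 20 weeks and p = 0.0397 at 8 weeks, with 0.00794 the smallest it can give. Adjusted over the 12 exact tests of the 3 members, these became 0.0635 and 0.119, so by this test no Lpo difference passed. The exact p of the other members ranged from 0.357 to 0.984.

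**Figure D3:**
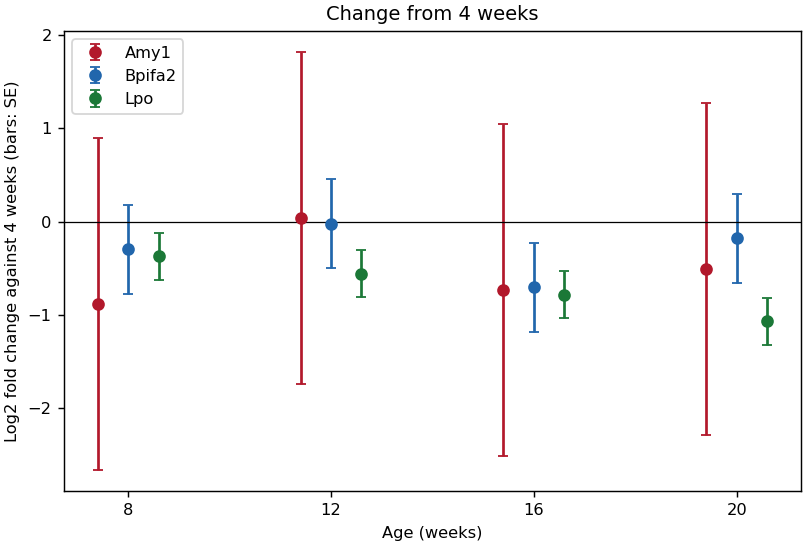
Log2 fold change against 4 weeks (vertical axis) at 8, 12, 16 and 20 weeks (horizontal axis) for the 3 genes. Points are estimates and bars their SE from the limma fit. The Lpo estimates run from -0.37 to -1.07 with an SE of 0.25, and the Amy1 bars, with an SE of 1.78, cross 0 at every age.

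The size of the Lpo decrease at 20 weeks rests in part on 2 arrays. Mice 3 and 5 at 20 weeks and mouse 2 at 16 weeks had the 3 arrays least like the others of their age (median correlation 0.887, 0.973 and 0.974), and they were also the 3 mice of lowest Lpo. The reference gene Actb was at 6.92 in mouse 3 and 10.25 in mouse 5 at 20 weeks, against 12.17 to 13.00 in the others of that age. In mouse 2 at 16 weeks it was at 10.87, against 11.80 to 12.65 in the others. The mean of the 7 measured reference genes was 8.42, 10.25 and 9.97 in these 3 arrays. It was 10.82 to 11.06 in the other mice of 20 weeks and 10.62 to 10.97 in those of 16 weeks. Without these 3 arrays the Lpo means were 13.67, 13.30, 13.12, 13.05 and 13.06 from 4 to 20 weeks. The 20-week difference was then -0.61, 1.53-fold lower, and still passed (limma adjusted p = 0.0275), in a fit that called 32.1% of all genes. The differences at 12 weeks (-0.56, adjusted p = 0.0206) and 16 weeks (-0.63, adjusted p = 0.0212) passed as well, in fits that called 43.3% and 33.3%. The call at 20 weeks was lost without mouse 5 of 20 weeks (-0.89, limma adjusted p = 0.0601) or without mouse 2 of 4 weeks (-0.97, adjusted p = 0.0693). It was also lost when only the 2 ages entered the fit (limma adjusted p = 0.272). With array weights, which give these 3 arrays little say, the difference was -0.56 and passed (limma adjusted p = 0.0324).

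Between neighbouring ages no member was called. Lpo differed by -0.19, -0.23 and -0.28 from 8 to 12, 12 to 16 and 16 to 20 weeks, each with an SE of 0.25. Of all genes, 0.0055%, 0.0055% and 0.0275% were called in these comparisons. No single step of the Lpo means could therefore be told from no change.

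The genes whose deviations from their age means were most like those of Amy1 over the 25 mice were Chia1 (Pearson r = 0.985), Cst10 (0.984), Dnase1 (0.972), Prpmp5 (0.958) and Smr3a (0.955). Chia1 encodes an acidic chitinase, Cst10 a cystatin, Dnase1 a secreted nuclease, Prpmp5 a proline-rich protein and Smr3a a small secreted protein of salivary glands. Because the mice lie in 2 separate clusters, these r mostly describe which mice were low, and they are given without a test. Chia1, Dnase1 and Prpmp5 were on the list of parotid products used here. The 8 mice of lowest Amy1 were also the 8 lowest for each of these 5 genes. Without the 3 arrays the same r lay between 0.955 and 0.990.

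The swing of Chia1 was wider than that of Amy1. At 4 weeks it had log2 values of 11.86, 2.0, 12.96, 13.24 and 13.57, and at 8 weeks 14.13, 5.77, 1.86, 13.83 and 12.10. In its lowest mice Chia1 thus lay below the median probe set. Dnase1 had 14.02, 5.39, 2.08, 13.80 and 12.02 at 8 weeks, and Cst10 had 13.31, 2.98, 1.78, 12.96 and 11.03. In each, mice 2 and 3 were low and mouse 5 a little below mice 1 and 4. Over all ages these 3 genes had pooled SDs within ages of 4.55, 4.14 and 4.65, and the 5 genes most like Amy1 were also the 5 expressed genes with a larger pooled SD than Amy1.

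**Figure D4:**
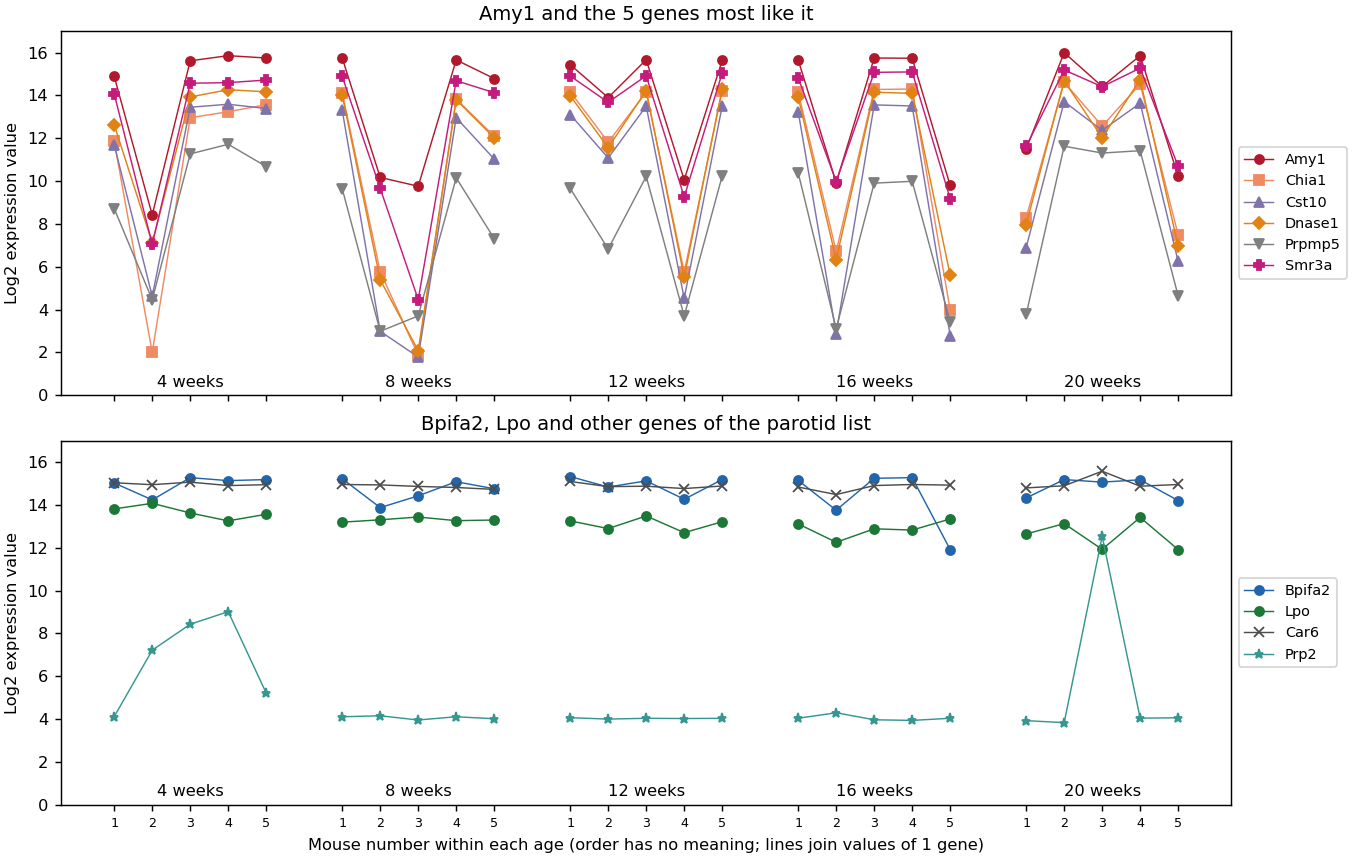
Log2 expression value (vertical axes) in each of the 25 mice (horizontal axis, mouse number within each age, in no order). The upper panel shows Amy1 and the 5 genes most like it, which drop together in 8 mice, and the lower panel shows Bpifa2, Lpo, Car6 and Prp2. Lines join values of 1 gene within an age.

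Of the 10 parotid products listed, 8 were measured, and 1 of the 8, Lpo, was called at 20 weeks (2.65% of all genes were), while 0 were called over the 5 ages (4.66% of all genes). Their median difference from 4 weeks was -1.03, -0.29, -0.76 and -0.66 at 8, 12, 16 and 20 weeks, against -0.030, -0.031, -0.015 and 0.037 over all genes. These medians rest on genes that were low in the same mice. The differences had SEs of 1.78 for Amy1, 2.54 for Dnase1, 2.79 for Chia1 and 2.08 for Prpmp5. No shared change with age is read from the medians. Car6, a secreted carbonic anhydrase, lay between 14.49 and 15.58 in all mice, and its lowest mouse of an age was that of Amy1 at 1 age of 5. Prp2, another proline-rich protein, had values of 4.12, 7.22, 8.43, 9.02 and 5.21 at 4 weeks. At the later ages it lay between 3.83 and 4.30, apart from 12.54 in mouse 3 at 20 weeks. Its differences from 4 weeks did not pass (limma adjusted p from 0.180 to 0.789).

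Bpifa2 was most like Cst10 (r = 0.845), Chia1 (0.822), Amy1 (0.819), Prpmp5 (0.815) and the glycosyltransferase B4galnt2 (0.806), in deviations from age means over the 25 mice. As the mice lie in separate clusters, relations with Amy1 were computed on each side of the gap. The gap was found in the Amy1 values themselves, which narrows their range on both sides, and age was not held, so these values describe the mice of each side. Among the 17 mice above the Amy1 gap, Amy1 and Bpifa2 had r = 0.742 (permutation p = 0.00299, adjusted 0.0374 over the 50 relations computed) and rho = 0.449 (permutation p = 0.0726, adjusted 0.321). Without the 2 mice farthest from the median r was 0.702. In deviations from the age means of these 17 mice, permuted within ages, r was 0.772 (permutation p = 0.00594) and rho 0.603 (permutation p = 0.0165), both unadjusted. Among the 8 mice below the gap r was 0.099 (exact permutation p = 0.616) and rho was 0.048 (exact permutation p = 0.935). With age not held, the ranks did not pass after adjustment in either cluster.

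No correlation of Lpo with the other members passed. With Bpifa2 its r over the 25 mice was 0.108 (permutation p = 0.592, adjusted 0.842) and rho 0.063 (permutation p = 0.767). In deviations from age means r was 0.0062 (permutation p = 0.979). With Amy1, r was -0.620 in the 8 lower mice (exact permutation p = 0.0851, adjusted 0.387), with a rho of -0.786 (exact permutation p = 0.0279, adjusted 0.201). In the 17 higher mice r was 0.382 (permutation p = 0.132, adjusted 0.413), with a rho of 0.0098 (permutation p = 0.974), and this r turned to -0.411 without the 2 mice farthest from the median. In the order of likeness to Amy1, Bpifa2 was 9th and Lpo 1749th of the expressed genes. The 8 mice of lowest Amy1 were also the 8 lowest for Bpifa2, Chia1, Dnase1 and Prpmp5 of the parotid list. For Lpo, Car6 and Prp2, 4, 4 and 3 of the 8 lowest mice were among them. Lpo was thus not the only gene of the list that did not share the low mice of Amy1. Which of the glands gave the Lpo signal was not tested.

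The genes most like Lpo were Rcn1 (r = 0.894), Tln1 (0.837), Rrbp1 (0.835), Clic4 (0.831) and Mgat4a (0.826). Rcn1 encodes a calcium-binding protein of the endoplasmic reticulum, Tln1 the adhesion protein talin, Rrbp1 a ribosome-binding protein of the endoplasmic reticulum, Clic4 an intracellular chloride channel protein and Mgat4a a glycosyltransferase of the secretory pathway. Without the 3 arrays these r were 0.753, 0.564, 0.635, 0.483 and 0.599. None of the 5 was among those most like Amy1 or Bpifa2.

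Among lists of other cell types, Lpo moved with the acinar cell genes common to all glands. The mean of 11 measured genes of 13 listed, 10 of them expressed, correlated with Lpo in deviations from age means with r = 0.753 (permutation p = 0.00026, adjusted 0.0085) and rho = 0.815 (permutation p = 1e-05, the smallest that 100000 resamples can give, adjusted 0.0005). Without the 2 mice farthest from the median r was 0.737, and without the 3 arrays it was 0.674. The mean level of the acinar list ranged from 9.0 to 9.57 at 4 weeks, 9.01 to 9.44 at 8 weeks, 9.17 to 9.45 at 12 weeks, 8.51 to 9.26 at 16 weeks and 7.56 to 9.44 at 20 weeks. The lowest value was that of mouse 3 at 20 weeks. Of the 11 genes, 0 were called at 20 weeks, 1 was lower at 16 weeks (Rab27b, a GTPase of secretory granules, -1.03) and 1 was higher at 12 weeks (Vamp8, a granule fusion protein, 1.15), against 2.65%, 3.4% and 7.01% of all genes, so these counts are near the background. The part of the acinar genes in the Lpo decrease was not tested. Like the acinar list, the mean of the 7 measured reference genes was lowest in mouse 3 at 20 weeks (8.42). That mean was not correlated with Lpo, so the relation is not shown to be particular to acinar genes.

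**Figure D5:**
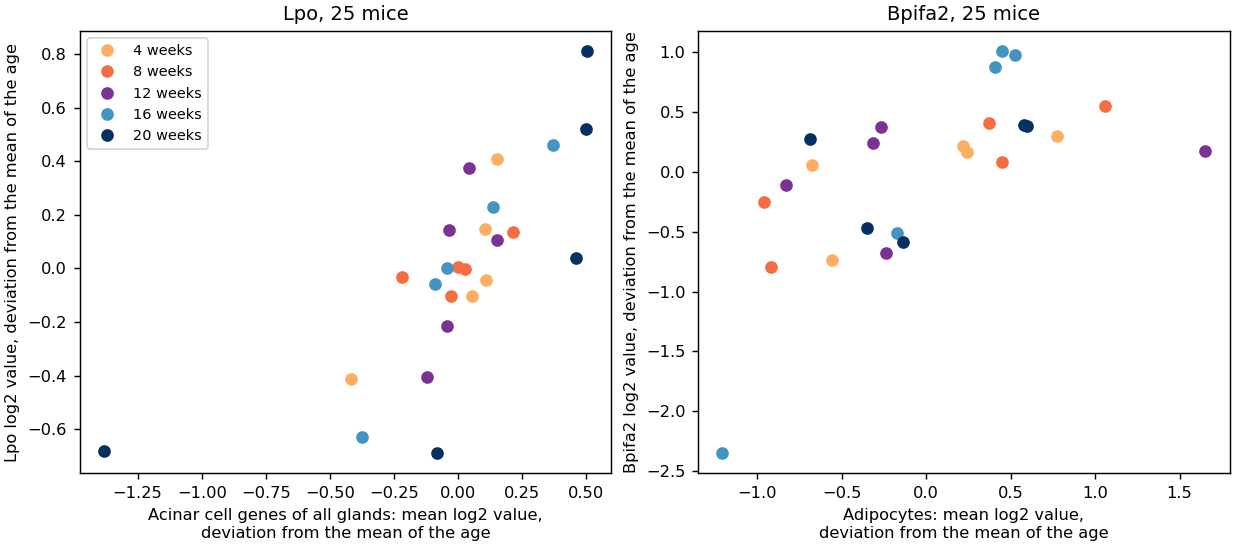
Deviation of each mouse from the mean of its age, in log2 units, for Lpo against the mean of the acinar cell genes of all glands (left) and for Bpifa2 against the mean of the adipocyte genes (right). Points are 25 mice of both Amy1 clusters, colored by age. The points rise together in both panels (r = 0.753 and 0.636).

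Bpifa2 moved with adipocyte genes, with r = 0.636 (permutation p = 0.00034, adjusted 0.0085) and rho = 0.681 (permutation p = 0.00054, adjusted 0.0135) in deviations from age means. Without mouse 5 of 16 weeks r was 0.563. These Bpifa2 values are pooled over both Amy1 clusters and were not computed within each. As the 8 mice of lowest Bpifa2 were the 8 of lowest Amy1, they may in part describe which mice were low. Amy1 had r = 0.707 with the adipocyte genes in the 17 higher mice (permutation p = 0.00112, adjusted 0.0187), while rho was 0.591 (permutation p = 0.0139, adjusted 0.173). With age held r was 0.698 (permutation p = 0.0442, unadjusted). Of 8 adipocyte genes 6 were measured and 4 expressed. Those 4 were Fabp4, a fatty acid carrier (6.55 to 12.1 over the 25 mice), Lpl, lipoprotein lipase (5.75 to 8.72), Adipoq, the hormone adiponectin (1.86 to 8.49), and Cidec, a lipid droplet protein (3.80 to 5.69), while the hormone genes Lep and Retn did not exceed 2.32 and 2.47. Fabp4 and Adipoq were named after their values were seen. In deviations from age means these 6 had r with Amy1 of 0.590, 0.693, 0.656, 0.407, -0.242 and 0.238 in the order named, given as a description. The mean level of the list ranged from 4.25 to 5.70 at 4 weeks, 3.67 to 5.69 at 8 weeks, 4.00 to 6.49 at 12 weeks, 3.81 to 5.54 at 16 weeks and 4.06 to 5.35 at 20 weeks. The part of fat tissue in the Amy1 and Bpifa2 levels was not tested.

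The reference genes were not correlated with any member. Apart from the acinar and adipocyte lists, no list or array measure examined passed with any member after adjustment over the 50 relations. For Bpifa2 these included the sublingual products (r = 0.686, permutation p = 0.0845, adjusted 0.387), where r was 0.0084 without mouse 5 of 16 weeks, and the genes of lymphocytes and lymph nodes (r = 0.579, permutation p = 0.0687, adjusted 0.387). For Lpo they included the upper quartile of the array (r = 0.647, permutation p = 0.0150, adjusted 0.15). Of the 7 pancreas markers measured, 1 was expressed (Prss2, 3.27 to 4.73), and their mean lay between 2.52 and 2.96 in all mice. The mean of the lymphocyte and lymph node genes varied more, from 3.08 to 6.535, and was highest in mice 3 and 4 at 16 weeks (6.535 and 6.35). The source of that signal was not tested.

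The called genes in the protein families of the members are given beside the shares of all genes called against 4 weeks, 2.26% at 8 weeks, 7.01% at 12 weeks, 3.4% at 16 weeks and 2.65% at 20 weeks. Of 11 BPI fold family genes measured, 5 were expressed, and Pltp, a phospholipid transfer protein of plasma, was the 1 called: it rose at 12 weeks (0.91, SE 0.24, limma adjusted p = 0.0226). Of 5 heme peroxidase genes, 1 was called at 8, 12 and 16 weeks and 2 at 20 weeks, where the other was Lpo. Pxdn, which crosslinks collagen of basement membranes, fell at 8, 12, 16 and 20 weeks by 0.86, 0.85, 1.24 and 0.96 on the log2 scale (SE 0.17, limma adjusted p from 0.00014 to 0.00789). The leukocyte peroxidase gene Mpo averaged 2.44, below the median probe set. Of 7 genes that supply peroxide or thiocyanate, Cftr, an anion channel that also passes thiocyanate, was the 1 called, and it rose at 8, 12 and 20 weeks (0.99, 0.89 and 1.28, SE 0.26, limma adjusted p from 0.00714 to 0.0449). Duoxa2, needed for peroxide-producing dual oxidases, averaged 4.35 and Slc5a5, an iodide and thiocyanate transporter, 3.99, and neither passed.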

How the data were processed

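RNA from salivary glands of 25 mice was measured on 1 array each. The values the authors deposited are on the log2 scale, for 45101 probe sets. The methods name GCRMA as their source and the submitters' processing notes RMA (version not given in the sources used). Normalization across arrays can hide a shift common to all genes. Values were used as deposited. The annotation lists 35890 probe sets, of which the 34958 with a single gene were kept (34754 gene IDs matched the gene table) and the 932 with several were not. It does not list 9211. A gene is the mean of its probe sets with a mean above 3.27, the median over all, or of all its probe sets otherwise. Each member has 1 probe set. Whether probes of Amy1 also bind other amylase transcripts was not tested. Array medians lay between 3.17 and 3.64. Precision rests on signal and on 5 mice per age, which the methods take from at least 2 litters.

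All arrays were fitted in limma 3.58.1 (R 4.3.3) without covariates: a moderated F-test over polynomials of age up to degree 4, B-statistics with a prior share of 0.01, and contrasts, two-sided, with Benjamini-Hochberg adjustment over 18194 genes and a threshold of 0.05. Rose, fell and called mean an adjusted p under it. The fit was run on simulated data with independent normal noise for each gene. That simulation held neither clustered values like those of Amy1 nor arrays unlike the rest of their age. Correlations used 100000 permutations (exact for 8 mice), within ages for deviations. Those with Amy1 were run within its 2 clusters, in place of the planned pooled ones. Python 3.11.15, numpy 2.4.6, pandas 2.3.3, scipy 1.17.1 and matplotlib 3.10.9 were used.

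Named genes are the members, the measured genes of their 5 lists, up to 4 genes per other list by adjusted F-test p, and the 5 genes most like each member by r of deviations. The members and lists were chosen with earlier results of these data known. Alternatives were other probe set rules, an expression filter, quantile normalization, array weights, another prior, the replicate number or the upper quartile as a covariate, only the 2 ages, and leaving out arrays. Leaving out arrays in variance shares, likeness and correlations, and holding age in the higher Amy1 cluster, were added after seeing the data.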

Additional observations from a re-analysis of the deposited data

Results flagged for a closer look

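At 4 weeks 1 mouse stood far from the other 4 of its age in 2 of the 3 genes. Amy1 was 8.42 in mouse 2 and 14.89 to 15.86 in the others, so that its gap to the nearest mouse was 0.870 of the range of the group, past the critical value of 0.71 for 5 samples. Bpifa2 was 14.24 in the same mouse and 15.03 to 15.28 in the others, with a gap of 0.757 of the range. Of the 15 groups examined (3 genes at 5 ages), 2 were past the critical value. For independent groups of normal values chance alone gives about 1 in 20. These 2 are the same mouse in genes that were low in the same mice, and Amy1 values are clustered. So the count is not compared with chance. At 8, 16 and 20 weeks 2 mice were low in Amy1 together, which this criterion for a single mouse does not detect.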

How the results depend on the processing

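The Lpo decrease at 20 weeks kept its direction under every alternative run, from -1.27 to -0.56 on the log2 scale, and its limma adjusted p ranged from 0.000801 to 0.272. It passed except where only the 2 ages compared entered the fit (-1.07), without mouse 2 of 4 weeks and without mouse 5 of 20 weeks. Leaving out each mouse in turn gave -1.27 to -0.89. The smallest decrease came with array weights (-0.56). At 12 weeks Lpo passed with array weights (-0.58), a covariate for each array's upper quartile (-0.86) and without the 3 arrays of lowest correlation (-0.56). At 16 weeks it passed with quantile normalization (-0.78), array weights (-0.68), the covariate (-0.84) and without the 3 arrays (-0.63), and leaving out each mouse gave -0.90 to -0.63, with a pass without mouse 3 of 20 weeks alone (-0.78, limma adjusted p = 0.0449). The F of Lpo over the 5 ages, 5.26, passed with only expressed genes (5.31), quantile normalization (7.20), the covariate (9.58) and without the 3 arrays (4.54), with 4.11 to 8.13 when a mouse was left out, the highest of which, without mouse 4 of 20 weeks, passed too (limma adjusted p = 0.0228). Its B-statistic exceeded the threshold with quantile normalization (2.45), the covariate (3.35) and a prior share of 0.05 (2.61), with -0.39 to 3.27 when a mouse was left out, past the threshold without mouse 2 (1.66) or mouse 4 (3.27) of 20 weeks. The cause of these shifts was not tested. Between 12 and 16 weeks the Lpo difference reversed with the covariate (0.018), and between 16 and 20 weeks with array weights (0.12) and without the 3 arrays (0.016). No Amy1 or Bpifa2 difference passed under any alternative, and those that were small changed sign. Amy1 against 4 weeks reversed at 12 weeks with quantile normalization (-0.039) and the covariate (-0.16), at 16 weeks with array weights (0.074) and without the 3 arrays (0.13), and at 20 weeks likewise (0.90 and 0.35). Its step from 12 to 16 weeks reversed without the 3 arrays (0.094). Leaving out each mouse moved Amy1 against 4 weeks from -1.39 to 1.06 at 12 weeks, -2.15 to 0.16 at 16 weeks and -1.93 to 0.34 at 20 weeks, and its steps from -1.79 to 0.13 and from -0.67 to 1.07 for the last 2. Bpifa2 reversed at 12 weeks with the covariate (0.012) and at 20 weeks with array weights (0.010), and leaving out each mouse gave -0.21 to 0.15 at 12 weeks and -0.063 to 0.78 from 16 to 20 weeks. The share of variance between ages stayed at 1.39% to 10.5% for Amy1, 5.35% to 19.4% for Bpifa2 and 44.9% to 61.7% for Lpo when a mouse was left out, and was 2.78%, 8.23% and 50.3% without the 3 arrays. Replicate numbers did not pair the mice: deviations of same-numbered mice correlated from -0.582 to 0.571 (median -0.0429), and 5 of 25 arrays were closest to their own number. With the replicate number as a block the Lpo difference at 20 weeks was -1.07 (SE 0.27, limma adjusted p = 0.0499), no call of a member changed, and the count of genes called over the 5 ages went from 848 to 657. Counts of called genes moved widely over the alternatives: 431 to 6866 over the 5 ages, 241 to 1419 by the B-statistic (350 as reported), 164 to 3012 at 8 weeks (411), 613 to 9980 at 12 weeks (1276), 204 to 6054 at 16 weeks (618), 47 to 6533 at 20 weeks (483), and 0 to 1026, 0 to 240 and 0 to 659 between neighbouring ages (1, 1 and 5). With 1 probe set per member, the rules for several probe sets left the members' values as they were. With 5 mice per age, Amy1 changes would have to exceed their SE of 1.78 by far to be detected.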

Other observations

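A pair of amylase probe sets belong to several genes and entered no comparison. The one shared by Amy2a1 to Amy2a5, pancreatic amylase genes next to Amy1, lay between 4.47 and 7.80 on the log2 scale, highest in mouse 4 at 16 weeks, and 6 of its 8 lowest mice were among the 8 lowest in Amy1. The one shared by Rnpc3 and Amy1 lay between 3.77 and 6.46, highest in mouse 5 at 8 weeks, and 2 of its 8 lowest mice were among those 8.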
